A study of Mus musculus with 4 samples.

Results

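Hox genes encode the homeodomain transcription factors that give cells their position along the body and along the limb. The values described are those of the 39 mouse genes whose symbols consist of Hox, the letter a, b, c or d of a cluster and a paralog group number, out of 23284 gene symbols with a count. All were taken, whatever their level: 11 *Hoxa*, 10 *Hoxb*, 9 *Hoxc* and 9 *Hoxd* genes. They were measured by RNA sequencing of Osr1+ cells, which were sorted alive by FACS for GFP from limbs of C57BL/6J embryos at E13.5. The 2 control samples were heterozygous *Osr1* GCE/+ and the 2 mutant samples homozygous *Osr1* GCE/GCE, from 4 embryos according to the methods of the study. GCE is a knock-in of eGFP-IRES-CreERt2 into *Osr1*, a zinc finger transcription factor gene of limb connective tissue, so that the control cells carry the allele too and lack 1 intact *Osr1* copy. The sort needs the allele, and no sample without it was used here.

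Hox genes lie in 4 clusters in which neighbours point the same way. A gene's paralog group number is its place in the cluster, from group 1 at the 3′ end to group 13 at the 5′ end, and members of a group in different clusters descend from the same ancestral gene. Low-numbered groups act in the head and neck region of the embryo and high-numbered groups in its rear, and in the limb the 5′ genes of *Hoxa* and *Hoxd* pattern the long axis. Groups 9 and 10 are known for the upper arm and thigh, group 11 for the forearm and lower leg, and group 13 for the hand and foot. In the GRCm38 annotation *Hoxa* spans 105.3 kb of chromosome 6, *Hoxb* 173.9 kb of chromosome 11, *Hoxc* 115.8 kb of chromosome 15 and *Hoxd* 96.8 kb of chromosome 2.

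All 39 genes hold a homeobox of 180 bases that codes for the DNA-binding homeodomain of 60 residues, and in each gene it lies in 1 exon. The homeoboxes of 4 genes on which the comparisons turn are shown, 5′ to 3′ on the coding strand, as GENCODE vM21 transcripts give them. They are those of *Hoxb6* and *Hoxb7*, which were among the 3 genes with the lowest fold changes between the genotypes, of *Hoxa10*, the most abundant Hox transcript, and of *Hoxd13*, which varied most between embryos of the same genotype. Their GRCm38 positions are chr11:96300689-96300868 (+), chr11:96289385-96289564 (+), chr6:52232554-52232733 (-) and chr2:74669930-74670109 (+). Capitals mark the 18 bases for the invariant core of the third helix, the helix that reads the major groove of the DNA.
Hoxb6: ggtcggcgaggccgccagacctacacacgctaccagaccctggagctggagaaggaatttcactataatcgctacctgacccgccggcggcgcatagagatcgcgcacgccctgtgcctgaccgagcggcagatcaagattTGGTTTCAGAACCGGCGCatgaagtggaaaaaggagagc
Hoxb7: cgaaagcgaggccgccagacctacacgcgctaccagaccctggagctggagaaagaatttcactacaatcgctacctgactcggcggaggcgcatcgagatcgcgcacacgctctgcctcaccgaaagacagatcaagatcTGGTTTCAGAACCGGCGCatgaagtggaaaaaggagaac
Hoxa10: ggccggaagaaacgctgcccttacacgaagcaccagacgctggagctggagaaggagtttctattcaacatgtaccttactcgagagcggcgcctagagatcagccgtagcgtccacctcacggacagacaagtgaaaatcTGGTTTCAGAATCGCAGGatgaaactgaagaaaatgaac
Hoxd13: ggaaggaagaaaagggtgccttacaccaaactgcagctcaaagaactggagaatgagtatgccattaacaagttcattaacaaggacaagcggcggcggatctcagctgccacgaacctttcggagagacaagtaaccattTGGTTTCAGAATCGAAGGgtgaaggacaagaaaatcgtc

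The homeoboxes were most alike within a paralog group. Over 42 pairs of the same group the median share of identical bases was 80.6%, against 61.7% for 172 pairs of the same cluster and different groups and 60.6% for the other 527 pairs. *Hoxb6* and *Hoxb7* shared 88.9% of the bases and 56 residues and *Hoxa10* and *Hoxd13* 62.2%. Since reads were 50 bases long, runs of that length were compared, and 9 of the 39 genes had any run of 50 transcript bases in common with another Hox gene. *Hoxb5* and *Hoxb7* had none and *Hoxb6* had 2 of its 1908 runs in common with *Hoxc9*. The largest overlaps were those of *Hoxd3* and *Hoxd4*, which share 339 runs (8.11% and 11.33% of theirs), and of *Hoxc5* and *Hoxc10*, which share 119 (3.92% and 6.4%). In both pairs the genes share annotated exon bases on the same strand, so the values of these 4 genes are less certain. The other genes with a shared run had at most 3 each, so the likeness of the homeoboxes gave few shared runs.

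Total counts per sample were between 52121596 and 61402140, so that 3 counts, taken as the limit of detection, amount to 0.0489 to 0.0576 CPM, the counts scaled to library size after TMM normalization. Such limits cover counting error only. The level of *Osr1* itself was 81.9 and 79.1 CPM in the controls against 11.9 and 13.9 CPM in the mutants (log2 fold change -2.64, SE 0.11, with a Benjamini-Hochberg adjusted p of 7.174e-05 by the edgeR quasi-likelihood test). Fibroblast markers summed to 22639 and 20607 CPM in the controls and to 19990 and 17445 CPM in the mutants. Of the 9 markers 8 had a negative log2 fold change, as 49.1% of all tested genes did. The collagen genes *Col3a1*, *Col1a2* and *Col1a1* weigh most in the sums, with means of 8224, 4980 and 3220 CPM. The paper reports *Col3a1* and *Col6a1* as lower in *Osr1*-deficient cells, also by RT-qPCR, so the sums do not measure fibroblast content alone. The markers other than collagens had values from -0.30 (*Tcf7l2*) to 0.05 (*Pdgfra*). Both *Tbx5*, the forelimb factor, and *Tbx4* and *Pitx1*, the hindlimb factors, were present in all 4 samples. GCE/GCE replicate 1 stood apart by *Xist*, the RNA of the inactive X chromosome, with 1142 CPM against 0.572 to 2.63 CPM in the others. The labels give no sex.

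Hox transcripts made up 0.0456% to 0.0517% of all counts. To compare genes, CPM were divided by the length of the longest annotated transcript in kb. On this scale *Hoxa* gave 41.8% ± 1.66 (SD over 4 samples) of the summed Hox level, *Hoxc* 31.7% ± 2.33, *Hoxd* 16.4% ± 1.82 and *Hoxb* 10.1% ± 1.59. The order of the clusters was the same in all 4 samples. *Hoxb* summed to 22.9 and 25.3 CPM per kb in GCE/+ cells and to 20.8 and 17.1 CPM per kb in GCE/GCE cells, *Hoxd* to 39.1 and 29.9 and to 32.5 and 38.5 CPM per kb. The *Hoxb* ranges of the genotypes were thus separate and the *Hoxd* ranges overlapped, because the *Hoxd* sum of GCE/+ replicate 1 and GCE/GCE replicate 2 was high and that of the other 2 samples low.

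**Figure D1:**
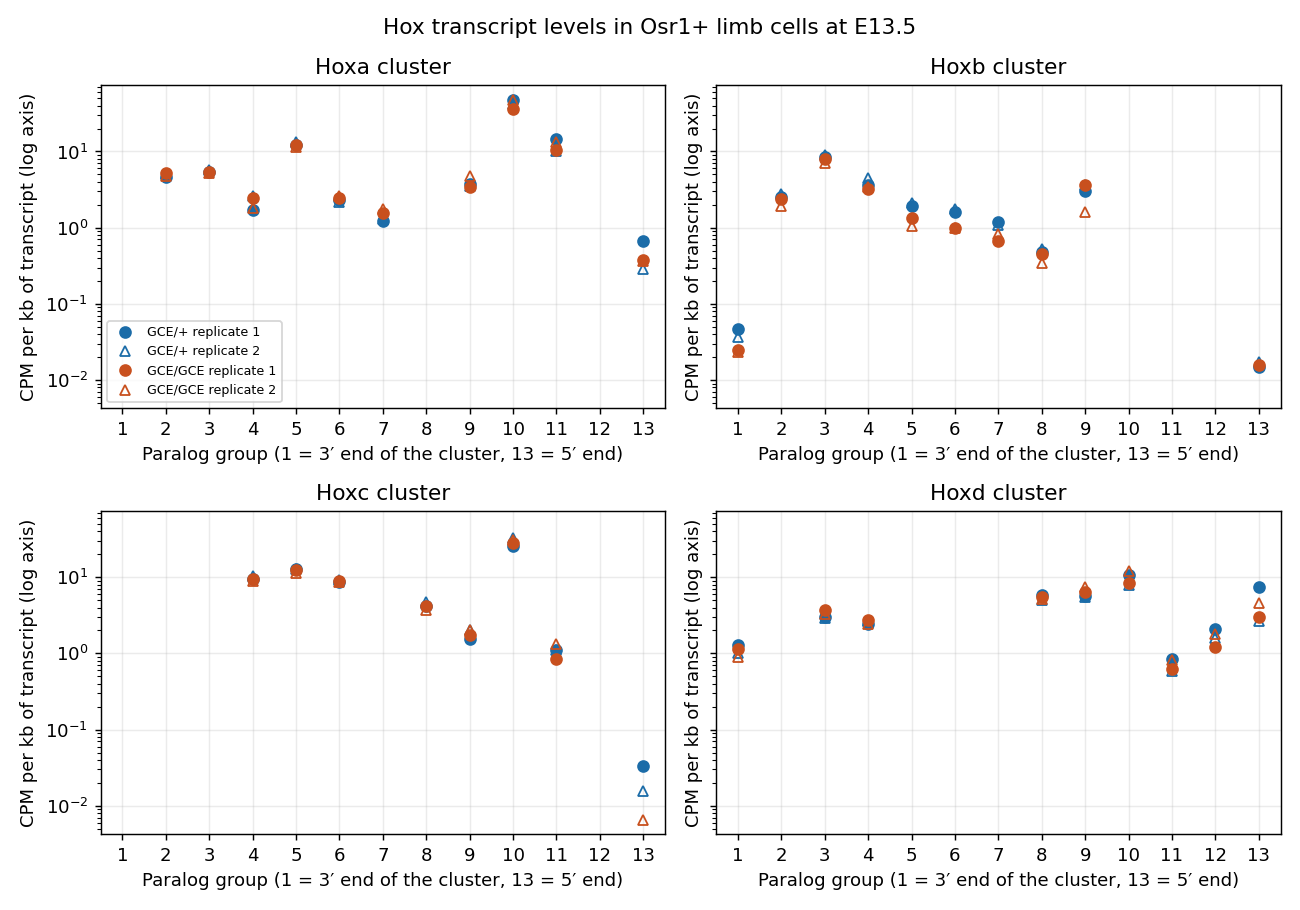
Level of the Hox genes in each sample, with the paralog group on the x axis, CPM per kb of transcript on a logarithmic y axis, and a panel for each cluster. Circles are replicate 1 and triangles replicate 2, in blue for GCE/+ and in orange for GCE/GCE, and values of 0 cannot be drawn. Group 10 stands highest in *Hoxa* (43.0 CPM per kb) and *Hoxc* (29.5 CPM per kb), and *Hoxb1*, *Hoxb13* and *Hoxc13* lie near the limit of detection.

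By paralog group, the 3 members of group 10 gave 38.6% ± 2.27 (SD over 4 samples) of the summed level per kb. Group 5 followed with 12.3% ± 0.965, group 4 with 8.43% ± 0.852 and group 3 with 7.86% ± 0.587. Groups 9 and 11 gave 7.01% ± 0.55 and 6.51% ± 0.908. Groups 1, 7 and 12 had the lowest shares, with 1.03%, 1.13% and 0.783%. The posterior groups 9 to 13 together held 55.1% ± 3.35, the central groups 4 to 8 32.5% ± 2.28 and the anterior groups 1 to 3 12.3% ± 1.10 of the Hox level. In *Hoxb* the proportions were the other way round, with 4.94% of the Hox level in its anterior, 3.76% in its central and 1.41% in its posterior genes.

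*Hoxa10* was the most abundant Hox transcript and had 123 and 107 CPM in the controls against 91.5 and 120.2 CPM in the mutants. Its mean of 43.0 CPM per kb put it at rank 1410 of 15471 tested genes with a length. *Hoxc10* came next with 48.9, 62.2, 54.1 and 59.6 CPM in the same order of samples, a mean of 29.5 CPM per kb. Both group 10 genes therefore stood well above the median of all tested genes, which was 6.50 CPM per kb. *Hoxc5* (12.4), *Hoxa5* (12.2) and *Hoxa11* (12.1 CPM per kb) followed and could not be ranked among themselves, as their ranges over the 4 samples overlapped. The same held for each further pair of neighbours in the order of the 35 tested genes, except *Hoxd11* (0.712) and *Hoxb8* (0.454 CPM per kb). *Hoxa13* had the lowest mean among them, 0.425 CPM per kb.

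*Hoxc5*, a central gene, had 37.4, 37.4, 36.9 and 33.2 CPM, in the order GCE/+ replicates 1 and 2 and GCE/GCE replicates 1 and 2 that is kept from here on. *Hoxc4* had 19.9, 22.2, 19.8 and 18.8 CPM, and *Hoxa5*, a gene needed for the lung and the neck vertebrae, 22.7, 25, 22.7 and 21.6 CPM. The samples of these 3 genes lay within a narrow band, and in *Hoxc4* and *Hoxc5* both GCE/GCE values were below both GCE/+ values by a small margin. *Hoxb3* led its cluster with 8.06 CPM per kb, ahead of *Hoxb4* with 3.69 and *Hoxb9* with 2.98. *Hoxd10* led *Hoxd* with 9.76 CPM per kb, ahead of *Hoxd9* with 6.23 and *Hoxd8* with 5.36. The level per kb depends on the transcript taken. With the longest coding transcript *Hoxb2* has a mean of 4.65 CPM per kb, above *Hoxb4* and *Hoxb9*. The longest *Hoxd11* transcript is 3.03 times as long as its longest coding one, with which its mean is 2.16 CPM per kb.

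Genes at the ends of *Hoxb* and *Hoxc* were at or near the limit of detection. *Hoxb1* had 6, 4, 3 and 3 counts, *Hoxb13* 2, 2, 2 and 0, *Hoxc13* 5, 2, 0 and 1, and *Hoxc12* none in any sample, which allows up to 0.0489 to 0.0576 CPM, so these 4 genes were not tested. Most of these values are at or under 3 counts. *Hoxd1*, of the same group as *Hoxb1*, was measured at 2.38, 1.87, 2.15 and 1.65 CPM. *Hoxd13* and *Hoxa13*, of the same group as *Hoxb13* and *Hoxc13*, had means of 4.40 and 0.425 CPM per kb. Groups 12 and 13 were thus represented by *Hoxa* and *Hoxd* genes, the clusters that pattern the distal limb.

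The 5′ genes differed between embryos of the same genotype. *Hoxd13*, which is needed for the digits, had 18.3 and 6.64 CPM in the GCE/+ samples against 7.41 and 11.4 CPM in the GCE/GCE samples. The highest and the lowest of these values are thus from the same genotype. Expressed as the log2 ratio of replicate 2 over replicate 1, the difference was -1.46 in GCE/+ and 0.62 in GCE/GCE cells, larger in size than that of 99.8% and 96.6% of 14274 genes with at least 0.5 CPM. *Hoxa13*, its partner in digit formation, had 1.59, 0.688, 0.913 and 0.882 CPM, with ratios of -1.21 and -0.05. GCE/+ replicate 1 was the highest sample for both genes.

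All 7 tested *Hoxa* and *Hoxd* genes of groups 10 to 13 were lower in GCE/+ replicate 2 than in replicate 1, by log2 ratios from -1.46 to -0.20. In GCE/GCE cells 6 of 7 were higher in replicate 2 than in replicate 1, with ratios from -0.05 to 0.62. Of all 15645 tested genes 7869 were lower in GCE/+ replicate 2 and 7847 higher in GCE/GCE replicate 2. In group 9 the ratios had the same signs, with -0.10 and 0.49 for *Hoxa9* and -0.03 and 0.21 for *Hoxd9*. *Hoxa11*, a forearm gene, had 33.2, 23.4, 23.9 and 30.1 CPM, *Hoxd10* 19.3, 14.4, 15.1 and 22.1 CPM, and *Hoxd12* 5.27, 4.09, 3.10 and 4.52 CPM. In each of them GCE/+ replicate 1 and GCE/GCE replicate 2 were the higher samples of their genotype. Over the 13 tested posterior genes the median size of the ratio was 0.37 in GCE/+ and 0.39 in GCE/GCE cells, against 0.15 and 0.11 over all tested genes. The central genes had medians of 0.13 and 0.14. Posterior *Hoxc* genes moved otherwise, since *Hoxc10* was higher in replicate 2 of both genotypes, with ratios of 0.35 and 0.14, and *Hoxc11* had ratios of 0.00 and 0.67. Erythroid markers summed to 459 and 156 CPM in GCE/+ and to 308 and 279 CPM in GCE/GCE cells, and cartilage markers to 706 and 1105 and to 1528 and 1681 CPM. Their part in these differences was not tested.

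**Figure D2:**
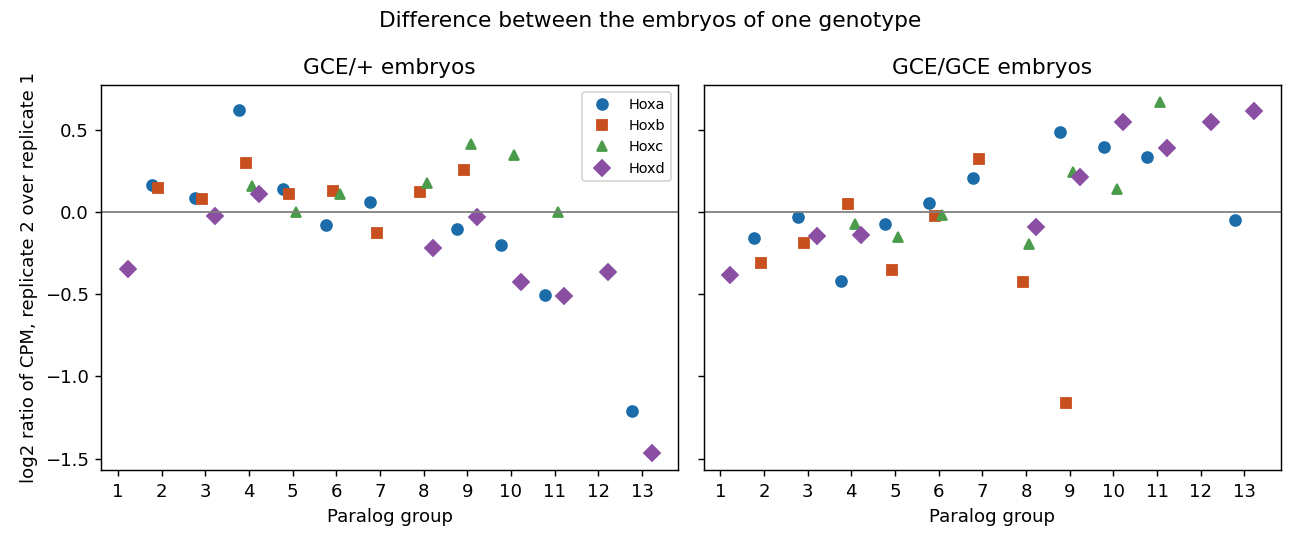
Log2 ratio of CPM in replicate 2 over replicate 1 (y axis) for tested Hox genes by paralog group (x axis), in GCE/+ embryos on the left and GCE/GCE embryos on the right, with a marker for each cluster. Groups 10 to 13 of *Hoxa* and *Hoxd* lie below 0 in GCE/+ embryos, down to -1.46 for *Hoxd13*, and all but *Hoxa13* lie above 0 in GCE/GCE embryos.

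GCE/GCE cells were compared with GCE/+ cells to find genes whose level differs when both copies of *Osr1* carry the knock-in. No Hox gene passed a Benjamini-Hochberg adjusted p of 0.1 by the edgeR quasi-likelihood test over 15645 genes, of which 1.78% passed. At an unadjusted p under 0.05 there were 4 of 35 Hox genes, *Hoxb5*, *Hoxb6*, *Hoxb7* and *Hoxd9*, against 10.5% of all tested genes. The 3 *Hoxb* genes among them were lower, as 4.92% of all tested genes were at this p. By DESeq2 1 Hox gene, *Hoxb5*, passed an adjusted p of 0.1, against 3.25% of all genes with an adjusted p. The share of called Hox genes was therefore close to or below the background. The median log2 fold change was -0.09 over the 35 Hox genes, with 24 negative and 11 positive values, and 0.00 over all tested genes. Both GCE/GCE samples were below both GCE/+ samples in 11 Hox genes (31.4%, against 19.1% of all tested genes) and above them in 4 (11.4%, against 19.2%). In the other 20 Hox genes the genotypes overlapped, and they were separate in either direction in 38.4% of all tested genes. With 2 samples against 2, an exact permutation test cannot give a two-sided p below 0.333, so that the tests rest on a spread shared across genes. In these bulk samples, fewer cells with a transcript and less of it per cell cannot be told apart.

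**Figure D3:**
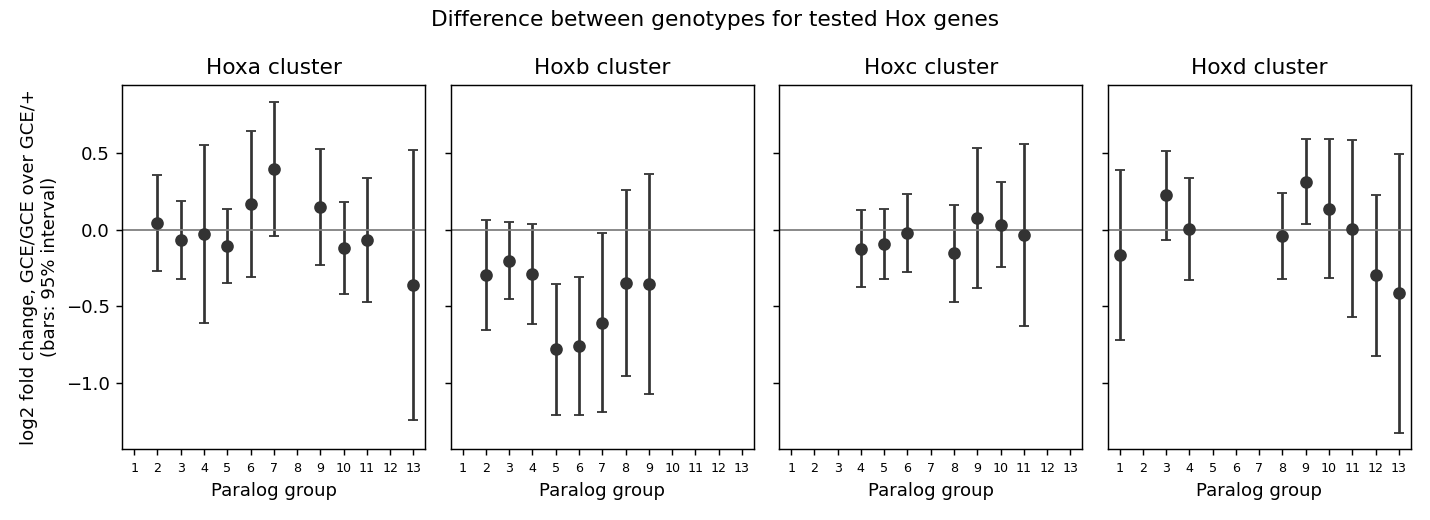
Log2 fold change of GCE/GCE over GCE/+ cells (y axis) for tested Hox genes by paralog group (x axis), with a panel for each cluster. Points are edgeR estimates and bars their 95% intervals, not adjusted for the number of genes. All 8 *Hoxb* points lie below 0, lowest at *Hoxb5*, *Hoxb6* and *Hoxb7*, and the other intervals shown, except that of *Hoxd9*, include 0.

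By cluster, the values were most often negative in *Hoxb*. All 8 tested *Hoxb* genes had a negative log2 fold change, as 49.1% of all tested genes did, with a median of -0.35. In 7 of the 8 both GCE/GCE samples were below both GCE/+ samples (87.5%, against 19.1% of all tested genes). The medians were -0.07 in *Hoxa*, with 7 negative and 4 positive values, -0.03 in *Hoxc* with 5 and 2, and 0.01 in *Hoxd* with 4 and 5. Neighbouring genes of a cluster are regulated together and are not independent observations, and none of the 8 *Hoxb* genes passed the threshold alone by edgeR, whereas *Hoxb5* passed by DESeq2.

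*Hoxb5*, *Hoxb6* and *Hoxb7*, which lie side by side in the middle of the cluster, had the lowest fold changes. *Hoxb5* (chr11:96303336-96306121) had 5.44 and 5.87 CPM in the controls against 3.69 and 2.89 CPM in the mutants. The genotypes were separate, with the lowest GCE/+ sample clearly above the highest GCE/GCE sample. The log2 fold change was -0.78 (SE 0.19, 95% interval -1.21 to -0.36, Benjamini-Hochberg adjusted p = 0.116 by the edgeR quasi-likelihood test), and DESeq2 gave an adjusted p of 0.0504. The value in GCE/GCE cells was 0.582 times that in GCE/+ cells (0.433 to 0.782). Leaving out GCE/GCE replicate 1 gave -0.97 (adjusted p = 0.0128) and leaving out GCE/GCE replicate 2 gave -0.62 (adjusted p = 0.382, both by edgeR).

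*Hoxb6* (chr11:96292476-96301569), the next gene on the 5′ side, had 3.15, 3.44, 1.96 and 1.93 CPM. Replicates were nearly alike in both genotypes and the genotypes did not overlap. Its log2 fold change was -0.76 (SE 0.20, 95% interval -1.21 to -0.31, adjusted p = 0.149 by edgeR and 0.212 by DESeq2). *Hoxb7* (chr11:96286623-96290162) had 1.54, 1.42, 0.861 and 1.08 CPM, from 94, 74, 50 and 66 counts. It was the least abundant of the 3 genes, and its samples were again separate by genotype. Its log2 fold change was -0.61 (SE 0.26, 95% interval -1.19 to -0.02, adjusted p = 0.447 by edgeR and 0.955 by DESeq2). The paralogs of these genes in the other clusters gave -0.11 (*Hoxa5*), -0.09 (*Hoxc5*), 0.17 (*Hoxa6*), -0.02 (*Hoxc6*) and 0.40 (*Hoxa7*) on the log2 scale, with intervals that included 0. No exon base of *Hoxb6* or *Hoxb7*, and 3.6% of those of *Hoxb5*, overlaps another annotated gene.

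**Figure D4:**
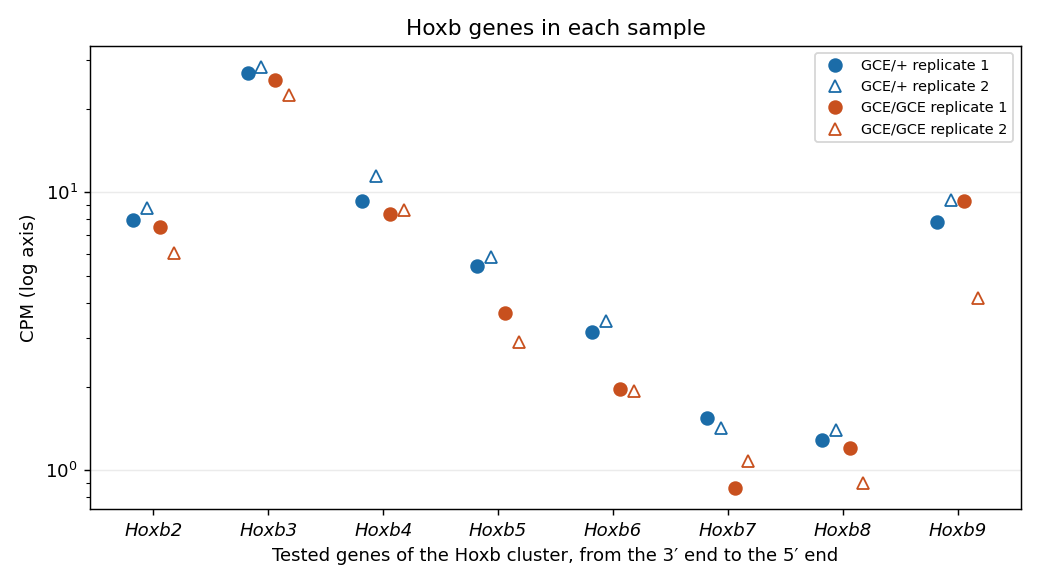
CPM on a logarithmic y axis for the 8 tested *Hoxb* genes in each sample, ordered on the x axis from the 3′ end (*Hoxb2*) to the 5′ end (*Hoxb9*) of the cluster. Circles are replicate 1 and triangles replicate 2, in blue for GCE/+ and in orange for GCE/GCE, and the GCE/GCE samples lie below both GCE/+ samples in each gene but *Hoxb9*.

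On the 3′ side, *Hoxb4* had 9.34, 11.5, 8.37 and 8.64 CPM and a log2 fold change of -0.29 (95% interval -0.62 to 0.04). *Hoxb3* had 26.8, 28.3, 25.5 and 22.3 CPM and -0.20 (-0.45 to 0.05). *Hoxb2*, a gene of the hindbrain, had 7.93, 8.76, 7.53 and 6.06 CPM and -0.30 (-0.66 to 0.06). In these 3 genes the genotypes were separate by less than in *Hoxb5* to *Hoxb7*, and the intervals include 0. An antisense transcript, *Hoxb3os*, covers 52.9% of the exon bases of *Hoxb3* and 27.3% of those of *Hoxb2*, and the library kit does not keep the strand, so reads from both strands there cannot be told apart. On the 5′ side, *Hoxb8* had 1.28, 1.40, 1.21 and 0.898 CPM and -0.35 (-0.95 to 0.26).

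*Hoxb9* was the exception of the cluster, with 7.83, 9.35, 9.30 and 4.15 CPM. Only GCE/GCE replicate 2 was low, and GCE/GCE replicate 1 was within the range of the GCE/+ samples. The log2 fold change was -0.35 with all samples (SE 0.31, Benjamini-Hochberg adjusted p = 0.841 by edgeR), -1.06 without GCE/GCE replicate 1 (adjusted p = 0.00068) and 0.12 without GCE/GCE replicate 2. The value therefore rests on which GCE/GCE sample is used. GCE/GCE replicate 1 was also the sample with 1142 CPM of *Xist*, so the fits of *Hoxb9* and *Hoxb5* without it differ in *Xist* content as well. The part of sex in these values was not tested.

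The other genes in and around the cluster were examined as well, in a comparison chosen after the data were seen. Of 17 other tested genes inside the cluster or within 500 kb of either end, none passed the threshold by edgeR, against 1.78% of all tested genes. Of these, 1 had an unadjusted p under 0.05 by edgeR, against 10.5% of all tested genes. A negative value was found in 8, against 49.1% of all tested genes, and the median log2 fold change was 0.02. Both GCE/GCE samples were below both GCE/+ samples in 4 of the 17 genes and above them in 2. Over all tested genes these shares were 19.1% and 19.2%. *Gm53*, between *Hoxb13* and *Hoxb9*, lies inside the cluster. It had a log2 fold change of -0.29 at a mean of 0.29 CPM, with both GCE/GCE samples below both GCE/+ samples. The 10 of the 17 genes whose mean reached 1 CPM, all outside the cluster, had values from -0.44 to 0.25 with a median of 0.00, of which 5 were negative. The neighbours thus lay on both sides of 0, and the difference between them and the *Hoxb* genes was not tested.

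**Figure D5:**
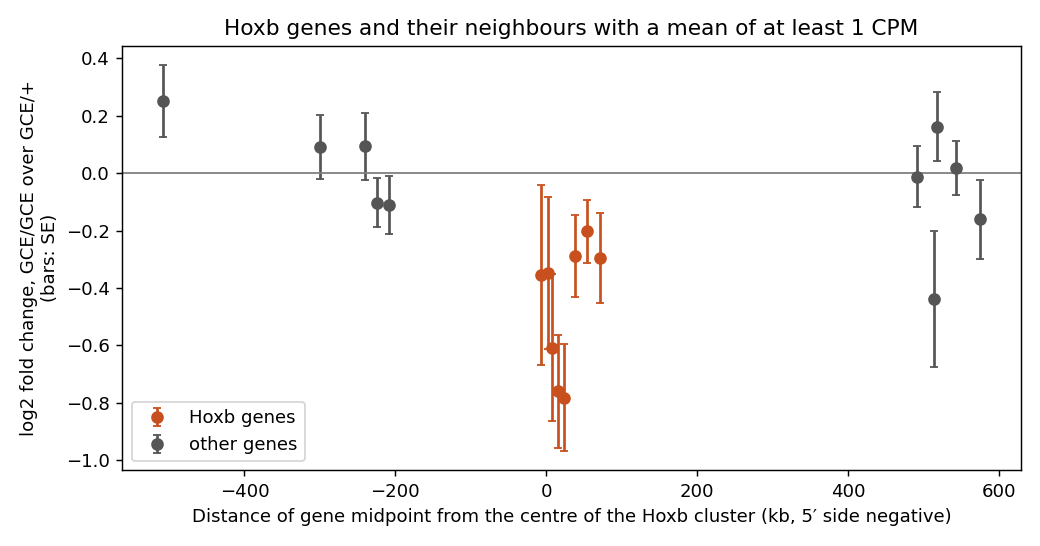
Log2 fold change of GCE/GCE over GCE/+ cells (y axis, bars are SE) for the 8 tested *Hoxb* genes in orange and the 10 neighbouring genes whose mean reached 1 CPM in grey, by distance of the gene's midpoint from the centre of the cluster in kb (x axis). The neighbours spread around 0 on both sides, from -0.44 to 0.25, and the *Hoxb* genes lie below 0.

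*Hoxd9* was the Hox gene with the lowest p among those with a positive value. It had 12, 11.7, 13.7 and 15.8 CPM, with both GCE/GCE samples above both GCE/+ samples. The log2 fold change was 0.32 (SE 0.12, 95% interval 0.04 to 0.59, adjusted p = 0.384 by edgeR and 0.589 by DESeq2). *Hoxa7* had 2.50, 2.60, 3.12 and 3.59 CPM and 0.40 (-0.04 to 0.84), and *Hoxd3* 8.93, 8.78, 10.9 and 9.83 CPM and 0.23 (-0.06 to 0.52). Together with *Hoxa6* (0.17) these were the 4 genes whose GCE/GCE samples were both above the GCE/+ samples. *Hoxd3* shares 62.8% of its exon bases with other genes, *Hoxd4* among them. Of the other central and anterior genes, *Hoxa2* to *Hoxa5*, *Hoxc4* to *Hoxc8*, *Hoxd1*, *Hoxd4* and *Hoxd8* had values between -0.17 and 0.05.

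Among the posterior genes *Hoxd9* alone had samples that were separate by genotype. In 12 of the 13 tested genes of groups 9 to 13 the GCE/GCE and GCE/+ samples overlapped, and 38.4% of all tested genes had separate samples. The group 11 genes *Hoxa11* and *Hoxd11* pattern the muscles and connective tissue of the forearm as well as its bones. *Hoxa11* had a log2 fold change of -0.07 (SE 0.18, 95% interval -0.47 to 0.34, adjusted p = 0.967 by edgeR), that is, 0.72 to 1.26 times the GCE/+ value. *Hoxd11* had 2.81, 1.97, 2.08 and 2.73 CPM and a value of 0.01 (SE 0.25, -0.57 to 0.58), that is, 0.674 to 1.5 times. The data thus leave room for changes within these bounds. The paper reports no obvious change of *Hoxa11* and *Hoxd11* in *Osr1*-deficient cells or limbs. The exons of the antisense RNA *Hoxa11os* cover 35.0% of the *Hoxa11* exon bases. *Hoxa11os* had 24.6, 14.1, 14.9 and 19.5 CPM, with the same order of samples within each genotype as *Hoxa11*. How fragments in the overlap were assigned is not known, since no strand setting is given.

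For group 10, *Hoxa10* had -0.12 (-0.42 to 0.18), *Hoxc10* 0.03 (-0.24 to 0.31) and *Hoxd10* 0.14 (-0.31 to 0.59) as log2 fold change and 95% interval. All 3 intervals include 0, and the samples of the genotypes overlap in each gene. In group 9, *Hoxa9* had 12.2, 11.4, 10.9 and 15.3 CPM and 0.15 (-0.23 to 0.53), and *Hoxc9* 3.65, 4.86, 4.10 and 4.85 CPM and 0.08 (-0.38 to 0.54). *Hoxc11* had 2.23, 2.24, 1.69 and 2.68 CPM and -0.03 (-0.63 to 0.56). For the most distal genes, *Hoxd12* gave -0.30 (-0.82 to 0.23), *Hoxa13* -0.36 (-1.24 to 0.52) and *Hoxd13* -0.42 (-1.33 to 0.50). The sign for *Hoxd13* depended on the sample left out: it was -0.96 without GCE/+ replicate 2 (adjusted p = 0.0615), -0.76 without GCE/GCE replicate 2 (adjusted p = 0.0215) and 0.49 without GCE/+ replicate 1 (adjusted p = 0.679), all by edgeR. Without GCE/GCE replicate 1 it was -0.15.

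Hox proteins bind DNA together with TALE homeodomain cofactors of the Pbx, Meis and Pknox families. All 9 cofactor genes were tested, none passed the threshold by edgeR, 2 had an unadjusted p under 0.05 (10.5% of all tested genes did), and their median log2 fold change was 0.04. *Meis2* had 162, 204, 189.8 and 179 CPM and *Meis1*, a marker of the proximal limb, 118, 154, 132 and 113 CPM. The samples of the genotypes overlapped in both of these abundant genes. *Meis3*, named after its values were seen, had 23.6, 21.0, 16.5 and 13.3 CPM and a log2 fold change of -0.58 (SE 0.13, Benjamini-Hochberg adjusted p = 0.110 by edgeR and 0.0139 by DESeq2). It was the only one of the 9 cofactor genes called by DESeq2, against 3.25% of all genes with an adjusted p.

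The regulators of the clusters are chromatin proteins that are present in most cells. Of 15 Polycomb genes, which keep Hox genes silent, none passed by edgeR or DESeq2, against 1.78% and 3.25% of all genes. None had an unadjusted p under 0.05 by edgeR, against 10.5% of all tested genes. The log2 fold changes lay between -0.08 and 0.12. *Ezh2*, the histone H3 methyltransferase, had 144, 154, 158 and 158 CPM, *Rnf2* 171, 179, 165 and 184 CPM, and *Jarid2* 121, 153, 129 and 131 CPM. Of 7 Trithorax and boundary genes, which keep Hox genes active or insulate their domains, none passed by either tool. None of them had an unadjusted p under 0.05 by edgeR, and the values ran from -0.06 to 0.22. The same shares over all genes apply to these counts. *Kmt2a*, the methyltransferase at active Hox genes, had 142, 172, 182 and 182 CPM and *Ctcf*, the boundary factor, 126, 139, 137 and 143 CPM. Of *Evx1*, *Evx2*, *Cdx1*, *Cdx2* and *Cdx4*, homeobox genes beside or upstream of the clusters, only *Evx1* had enough counts to be tested, with 0.191 to 0.312 CPM. Of 16 noncoding RNAs of the clusters 8 had a row in the files and 2, *Hoxa11os* and *Hoxaas3*, could be tested, and neither passed.

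Of 14 genes that set the limb axes with or upstream of Hox genes 13 were tested. None passed by edgeR, 4 had an unadjusted p under 0.05 (10.5% of all tested genes did), and 1, *Tbx4*, passed by DESeq2 (3.25% of all genes did). *Shh*, which marks the posterior limb bud, had at most 0.0191 CPM. *Gli3*, the mediator of Shh signals, had 197, 227, 268 and 247 CPM, with a value of 0.28 on the log2 scale (SE 0.10, adjusted p = 0.360 by edgeR). *Tbx5* had 101, 95.6, 92.1 and 113 CPM and 0.06, with overlapping samples. *Tbx4* had 46.4, 41.8, 53.7 and 62.2 CPM, with both GCE/GCE samples above both GCE/+ samples, and 0.39 (SE 0.10, adjusted p = 0.154 by edgeR and 0.0588 by DESeq2). *Pitx1*, also of the hindlimb, had 43.3, 34.6, 31.6 and 38.0 CPM with overlapping samples, and a value of -0.16. The paper reports no obvious change of *Tbx4* and *Tbx5* in *Osr1*-deficient cells or limbs, whereas *Tbx4* passed by DESeq2 here. The shares of forelimb and hindlimb cells in each sample were not given in the labels.

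Markers of macrophages, cartilage and tendon moved with the genotype. The paper reports cartilage and tendon genes as raised within the *Osr1*-deficient cells, with RT-qPCR for selected ones. All 12 macrophage markers had their 2 mutant values below their 2 control values, as did 19.1% of all tested genes. Of these markers 8 passed the threshold by edgeR, against 1.78% of all tested genes, and the median log2 fold change was -0.97. Their summed levels were 357, 362, 226 and 158 CPM. *C1qb*, a complement gene of macrophages, had the largest fold change among those that passed, with 28.5, 25.6, 14.2 and 9.78 CPM (log2 fold change -1.17, SE 0.17, adjusted p = 0.0288, edgeR). All 10 cartilage markers had positive values with a median of 0.89, while 49.1% of all tested genes had a negative value. Of the 10 markers 3 passed by edgeR, *Col9a1* (0.97), *Sox9* (0.63) and *Col9a2* (0.59). Of 3 tendon markers *Tnmd* (2.06) and *Mkx* (1.09) passed by edgeR, and 1.78% of all tested genes did. By DESeq2 *Col9a1* did not pass (adjusted p = 0.303), and *Scx*, the other tendon marker, did (adjusted p = 0.0193). No fibroblast (median -0.16), endothelial (-0.33), myogenic (0.07), epidermal (-0.08), Schwann cell (-0.06) or erythroid (0.33) marker passed by edgeR. However, 2 of 9 fibroblast, 3 of 6 endothelial and 2 of 7 epidermal markers had an unadjusted p under 0.05 by edgeR, as 10.5% of all tested genes did. By DESeq2 1 fibroblast marker passed, against 3.25% of all genes with an adjusted p. The macrophage and *Hoxb5* levels were both lower in GCE/GCE cells and lowest in GCE/GCE replicate 2. *Hoxb2*, *Hoxb3*, *Hoxb6*, *Hoxb8* and *Hoxb9* were also lowest in that sample, *Hoxb6* by little (1.93 against 1.96 CPM in GCE/GCE replicate 1). *Hoxb4* and *Hoxb7* were lowest in GCE/GCE replicate 1, *Hoxb7* with 0.861 against 1.08 CPM. The part of other cell types in the Hox values was not tested.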

How the data were processed

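RNA of GFP+ cells sorted from limbs was made into libraries with the TruSeq RNA kit v2 and sequenced as 50-bp paired-end reads. The authors aligned them with TopHat2 against mm9, guided by UCSC gene models, and deposited raw counts of fragments per gene symbol from HTSeq (intersection-strict, no strand setting given). Total counts were 52121596 to 61402140 per sample. Genotype and replicate number came from the labels. Of the symbols 97.9%, and all 39 Hox symbols, matched GENCODE vM21 (GRCm38), which gave coordinates, lengths and homeoboxes, and no coordinate was converted from mm9.

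Genes were filtered with filterByExpr, normalized by TMM and tested with the quasi-likelihood test of edgeR 4.0.16 in R 4.3.3, two-sided, with Benjamini-Hochberg adjustment over 15645 genes and a threshold of 0.1. The residual degrees of freedom were 2 and the prior ones 6.339, so p-values rest largely on a spread shared across genes. The standard error and the 95% interval of a log2 fold change were derived from the F statistic. DESeq2 1.42.0, which the study used, was an alternative, as were other normalizations, filters, thresholds, length offsets, a replicate block and leaving out each sample. The procedure was tested on simulated data. Same-numbered samples did not deviate together (correlation of -0.009 over 9764 genes with at least 10 CPM), so the number was not taken to pair them. Python 3.11.15 with pandas 2.3.3 and numpy 2.4.6 made the tables, and matplotlib 3.10.9 the figures.

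The Hox genes and the gene lists were chosen with earlier results of these data known. Named with values were the 10 Hox genes with the lowest p, the 3 with the highest level per kb in each cluster and every tested gene of groups 9 to 13. From other lists, up to 4 genes past the threshold by fold change were named, or otherwise up to 3 by mean CPM. Transcript length was that of the longest transcript. Some values and a sequence that these rules would name are not reported here.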

Additional observations from a re-analysis of the deposited data

How the results depend on the processing

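The count of called Hox genes was 0 of 35 in the main analysis and also with RLE or upper quartile normalization, at least 10 counts in every sample, length offsets or an adjusted p of 0.05. It was 1 with DESeq2 and 1 without a filter, in both cases *Hoxb5* (adjusted p = 0.0504 and 0.0764), and 0 to 2 on leaving out a sample, where *Hoxd13*, *Hoxb9* or *Hoxb5* passed. The lone sample of a genotype is then assumed to vary like the others. With the replicate number as a block it was 0 Hox genes and 280 of all genes. The count over all genes was 279 in the main analysis, 502 with DESeq2, 425 without a filter, 434 with length offsets and the block, 122 at an adjusted p of 0.05, and 197 to 984 when a sample was left out. The cause of these moves was not tested. The share of calls with a higher level in GCE/GCE cells was 49.8% in the main analysis, 36.8% without GCE/GCE replicate 1 and 67.3% without GCE/+ replicate 2.

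Over 12 alternatives, 386 of 420 log2 fold changes of the 35 Hox genes (91.9%) had the direction of the main analysis. The 34 others came from 17 genes. *Hoxb5* ranged from -0.97 to -0.62, *Hoxb6* from -0.83 to -0.70 and *Hoxb7* from -0.78 to -0.46. The share of *Hoxa* in the level per kb was 39.6% with the union of exons, and that of *Hoxb* 11.7% with the mean transcript length. With 2 samples a genotype, small differences in low genes such as *Hoxb7* and *Hoxa13* are not resolved at this depth.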
